A study of Mus musculus with 2 samples.

Results

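This report describes the states of cardiac fibroblasts in 1 library, the PostnMCM control, as 4 fibroblast subclusters (0, 3, 4 and 5) of the authors' clustering. It is 1 of 2 libraries of the series. For each of 15059 genes the deposited tables give the share of the cells of a subcluster with a depth-corrected count (SCTransform) above 0, called counted below, and a gene was taken as a marker of a subcluster where that share lay at least 30 percentage points above its share in each of the other 3. Cells from both libraries were clustered together on these same genes, so a marker describes how the cells were divided and is not a test of a difference. Fibroblast subclusters 1 and 2 were not analysed here, and "highest" below means highest of the 4.

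The control mice were adult and carried PostnMCM, a tamoxifen-inducible MerCreMer recombinase driven from the Postn locus, together with R26-eGFP, a reporter that Cre switches on. They underwent ligation of a coronary artery to cause myocardial infarction (MI), received chow with 0.4 g/kg tamoxifen citrate from then on, and were collected 6 days after MI per the labels and a later day per the study's methods. The other library, Yapfl/fl;Wwtr1fl/+;PostnMCM, had the same reporter, injury, chow and collection. The name used for it here, the library labelled Yap/Wwtr1-depleted, follows its label. Whether the counted end of the transcript lies within the deleted part was not given in the sources used here, so the shares that follow do not check the deletion. Its Yap1 shares were 56.2%, 43.5%, 40% and 47.6% in subclusters 0, 3, 4 and 5, against 46.2%, 23.3%, 57.5% and 30.4% in the control library. Its Wwtr1 shares were 90.6%, 91.3%, 60% and 85.7%, against 81.4%, 93.3%, 80% and 100%. Interstitial cells were freed from the ventricles by perfusion with enzymes, sorted as live cells without a fibroblast gate, and captured on the 10x Chromium system. How many hearts entered a library was not given in the sources used here.

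After an infarct, resident fibroblasts and cells of the epicardium, the sheet of mesothelial cells around the heart, enter the injured wall, divide and turn into matrix-producing cells. Myofibroblasts are the activated form, known for smooth muscle actin (Acta2), for fibrillar collagen and for periostin (Postn), a secreted matricellular protein that binds collagen. Collagen triple helix repeat containing 1 (Cthrc1) is a secreted protein made by activated fibroblasts in scars. Later fibroblasts of the mature scar, called matrifibrocytes, are known for cartilage and tendon genes such as Comp, Cilp and Chad.

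Each group was 1 library, and the tables list neither cell numbers nor depth per cell. No test, standard error, interval or detection limit is therefore given, and all shares are the authors' deposited values. The smallest share above 0 in the control library was 0.7%, 3.3%, 2.5% and 4.3% in subclusters 0, 3, 4 and 5, so the shares were coarsest in subcluster 5. The median share over all genes was 26.2%, 30%, 27.5% and 21.7%, so genes were detected least often in subcluster 5. Transcripts of blood cells were found in every subcluster of the control library, with S100a8 of neutrophils in 78.3% to 91% of cells and Lyz2 of macrophages in 80% to 90%, while the median over 13 cardiomyocyte genes was 3.3% to 5.0%. The study's methods name no doublet caller, and doublets were not removed here. The part of free RNA and of doublets in the shares below was not tested.

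Of the 15059 genes, 118 (0.784%) were markers of subcluster 5, 206 (1.37%) of subcluster 3, 41 (0.272%) of subcluster 4 and 4 (0.0266%) of subcluster 0. Subcluster 5 was led by Ebf1, Sparcl1, Dpt and Aspn and included secreted matrix genes, subcluster 3 was led by Kif4, Ccnb2 and Mki67 and included genes of mitosis, and subcluster 4 was led by Mylk, Gmpr and Agtr1a. Since genes were detected least often in subcluster 5, its count rose to 221 with centred shares and to 184 with quantile normalised shares. Postn was among the markers of subcluster 5, while Acta2 and Cthrc1 were markers of none of the 4.

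Postn was counted in 87% of control cells of subcluster 5, and in 40%, 25.5% and 10% of cells of subclusters 3, 0 and 4. Subcluster 5 thus stood 47 points above the next. Acta2, the contractile actin of myofibroblasts, was counted in 53.3% of cells of subcluster 3, in 47.8% of subcluster 5, in 32.5% of subcluster 4 and in 31% of subcluster 0. The Postn-rich subcluster 5 lay 5.5 points below subcluster 3 in the shares as deposited, but 4.1 points above it with shares centred on each subcluster's median over the 12576 genes at 10% or more in at least 1 of the 4, and 1.87 points above it with quantile normalised shares. Cthrc1 was counted in 82.6% of cells of subcluster 5 and in 70%, 46.7% and 44.8% of subclusters 4, 3 and 0. Subcluster 5 was highest for Cthrc1 by 12.6 points, short of the 30 points required. The 3 genes did not share 1 order over the 4 subclusters.

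**Figure D1:**
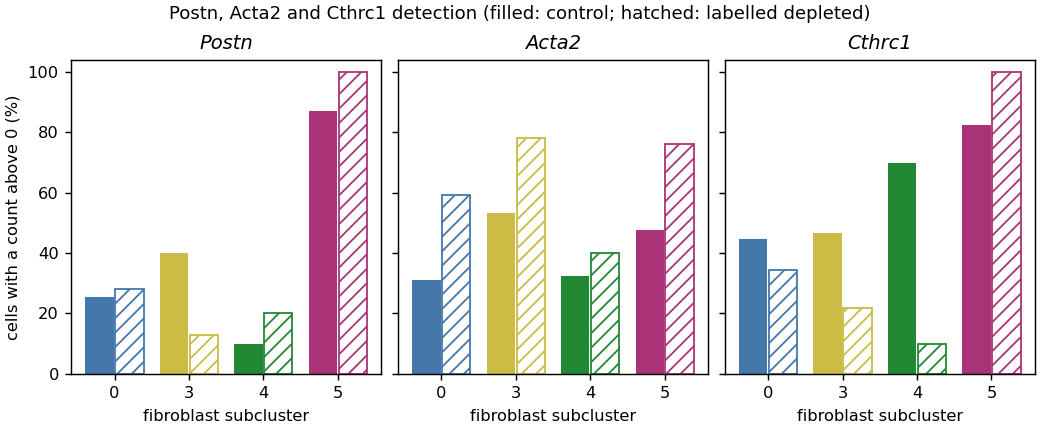
Share of cells (%) with a count above 0 for Postn, Acta2 and Cthrc1 in fibroblast subclusters 0, 3, 4 and 5, in the control library (filled bars) and in the library labelled Yap/Wwtr1-depleted (hatched bars), 1 library each. Postn and Cthrc1 were highest in subcluster 5 in both libraries, and for Acta2 the bars of subclusters 3 and 5 are the tallest in both, at 53.3% and 47.8% in the control and 78.3% and 76.2% in the other.

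The regions around the start sites of Postn and Acta2 are shown because the Postn locus drives the Cre of this model and because the shares of both genes followed different orders. Sequences are from RefSeq (GRCm38.p6, whereas the reads were aligned to GRCm39) and run 5′ to 3′ on the gene's strand from 250 bases before to 50 bases after a start. Capitals mark any of 5 motifs searched on both strands: the CArG box bound by serum response factor, GGAATG (core of the site of TEAD factors, the partners of YAP and TAZ), the TATA box TATAAA, the NF-Y element CCAAT and TTTGAA (the element CHR of cell cycle genes).
Postn, first start, chr3:54359017-54359316, plus strand: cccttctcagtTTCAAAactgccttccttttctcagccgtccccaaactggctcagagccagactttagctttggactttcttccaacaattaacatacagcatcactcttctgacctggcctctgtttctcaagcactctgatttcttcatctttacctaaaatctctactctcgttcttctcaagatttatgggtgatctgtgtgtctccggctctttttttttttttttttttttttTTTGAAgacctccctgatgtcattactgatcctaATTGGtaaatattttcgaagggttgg
Postn, second start, chr3:54360857-54361156, plus strand: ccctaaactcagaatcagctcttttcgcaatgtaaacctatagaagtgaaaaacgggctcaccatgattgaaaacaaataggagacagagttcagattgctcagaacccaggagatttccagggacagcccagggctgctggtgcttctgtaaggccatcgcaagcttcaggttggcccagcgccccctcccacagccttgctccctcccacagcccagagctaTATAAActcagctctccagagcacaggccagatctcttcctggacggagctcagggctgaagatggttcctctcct
Acta2, chr19:34255324-34255623, minus strand: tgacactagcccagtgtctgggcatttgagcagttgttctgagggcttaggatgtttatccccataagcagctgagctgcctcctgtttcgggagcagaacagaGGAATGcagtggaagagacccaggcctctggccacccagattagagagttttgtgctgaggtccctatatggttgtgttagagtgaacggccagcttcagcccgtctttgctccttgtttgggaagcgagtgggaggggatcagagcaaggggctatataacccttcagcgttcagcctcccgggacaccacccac
The second Postn start held 1 TATAAA and the first held 1 CCAAT and 2 TTTGAA, read on either strand. The Acta2 window held 1 GGAATG. The CArG box was searched only as the exact letters CCWWWWWWGG, with W for A or T. Near matches were not marked, such as ccctatatgg and ccttgtttgg in the Acta2 window. Over the promoters of 27025 genes, 15.7% held TATAAA, 41.1% held CCAAT, 20.2% held TTTGAA, 16.6% held GGAATG and 1.81% held a CArG box, so these matches are common letters and say nothing of binding.

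Of the genes that led subcluster 5, the transcription factor Ebf1 had the widest margin, with 95.7% of cells in subcluster 5, 4.1% in subcluster 0 and listed at 0 in subclusters 3 and 4. Sparcl1, a matricellular relative of osteonectin, was at 91.3% in subcluster 5, at 4.1% in subcluster 0 and listed at 0 in the other two. Aspn, a small leucine-rich proteoglycan, was at 82.6%, against 0.7% in subcluster 0 and 0 in subclusters 3 and 4. Each of the 3 was near absent outside subcluster 5. Dpt, a matrix protein of resting fibroblasts, was at 95.7% against 5.5%, 13.3% and 10% in subclusters 0, 3 and 4. Srpx2 had a share of 65.2% in subcluster 5 and was listed at 0 in all 3 others, as were Ccn5, Meox1, Pla1a, Fgf7 and Fmo1, at 43.5%, 43.5%, 43.5%, 34.8% and 30.4%. For these 6 genes no share above 0 was listed outside subcluster 5. Of the 118 markers, 83 were counted in at least 50% of the cells of subcluster 5.

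Matrix genes were then counted. The 7 matrix lists (fibrillar and other collagens, basement membrane, elastic fibre, matricellular proteins, small leucine-rich proteoglycans and collagen-processing enzymes) hold 115 measured genes, 0.764% of all genes, and 21 of the 118 markers (17.8%). Of these 115 genes, 62 (53.9%) had their single highest share in subcluster 5, against 20.8% of all genes. Subclusters 0, 4 and 3 were highest for 13, 17 and 2 of them, where 17.8%, 25.3% and 30.3% of all genes were. The basement membrane list differed from the other matrix lists, with 7 of 17 highest in subcluster 4 and 5 in subcluster 5.

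Among the matricellular genes, secreted proteins that signal from the matrix rather than build it, 7 of 18 were markers of subcluster 5 (0.784% of all genes were), and the median share was 78.3% there against 25.5%, 43.4% and 33.8% in subclusters 0, 3 and 4. Besides Postn and Sparcl1 these were Thbs2, Ccn1, Ccn2, Ccn4 and Ccn5. Thbs2, a thrombospondin, was counted in 91.3% of cells of subcluster 5 and in at most 27.5% elsewhere. Ccn2 (connective tissue growth factor) was at 78.3% against at most 27.5%, and Ccn1 at 78.3% against at most 42.5%. Both are textbook targets of YAP and TAZ. Ccn4 was at 82.6% against at most 50%. Ccn3 went another way, with 83.4%, 80%, 27.5% and 60.9% in subclusters 0, 3, 4 and 5. Thbs1 was highest in subcluster 4, at 87.5%, against 60.9%, 50% and 39.3% in subclusters 5, 3 and 0. The family was thus divided between the subclusters, and no member had its lowest share alone in subcluster 5. Sparc and Fn1 were at 100% in all 4.

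Of the small leucine-rich proteoglycans, which coat collagen fibrils and set their width, 5 of 10 were markers of subcluster 5 (0.784% of all genes were). Lum was counted in every cell of subcluster 5 and in 26.7% to 40% of cells of the others. Ecm2 was at 65.2% against at most 6.7%, and Prelp at 73.9% against at most 43.3%. Ogn, at 100% against at most 70%, was just inside the threshold with a margin of 30 points, and Shc2 and Stox2 stood beside it at 30.1 and 30.2 points. Just outside lay Ptx3 at 29.8 points and Pi15 and Sobp at 29.7 points. Dcn was at 100% in all 4 subclusters and Bgn at 96.7% to 100%.

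The fibrillar collagens had a median share of 69.3%, 63.4%, 66.2% and 84.8% in subclusters 0, 3, 4 and 5, and 5 of 10 were highest in subcluster 5 (20.8% of all genes were), with 4 tied. Col5a1 led by 100% to 98.6%, Col27a1 by 39.1% to 37.5% and Col11a2 by 4.3% to 2.5%. These leads were smaller than the smallest share above 0 in subcluster 5, 4.3%, while Col5a3 and Col11a1 led by more. Col1a1, Col1a2, Col3a1 and Col5a2 were at 100% everywhere. Col11a1, a minor chain that nucleates fibrils, was the 1 marker of 10 (0.784% of all genes were), at 43.5% in subcluster 5 and at most 10% elsewhere. Of the other collagens, Col15a1 was at 82.6% against at most 26.7%, and Col8a1, a short-chain collagen, was at 52.2% against at most 7.5%. Col6a5 differed, at 8.7% in subcluster 5 and 43.3% to 60% in the others. Shares near 100% cannot show how much transcript a cell held, and levels of the major collagens were not compared. In the library labelled Yap/Wwtr1-depleted the fibrillar collagen median was 79.7%, 74%, 85% and 73.8% in subclusters 0, 3, 4 and 5, lowest in subcluster 5.

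The enzymes that hydroxylate, cleave and cross-link collagen had a median share of 95.7% in subcluster 5 against 79%, 75% and 86.2% in subclusters 0, 3 and 4, and 17 of 28 were highest in subcluster 5 (20.8% of all genes were). P4ha2 and P4ha3, subunits of prolyl hydroxylase, were at 87% against at most 45.5% and at 69.6% against at most 30%. Plod1, a lysyl hydroxylase, was at 87% against at most 52.4%. Pcolce2, which speeds removal of the collagen propeptide, was at 52.2% against at most 3.3%. Lox, which cross-links collagen and elastin, was at 100% in both subclusters 5 and 4, and at 70.3% and 73.3% in subclusters 0 and 3. Ctsk, a collagen-cleaving protease, was at 82.6% against at most 32.5%, and the metalloprotease Adam19 at 69.6% against at most 16.7%. The list of matrix metalloproteases, related proteases and their inhibitors as a whole had 1 marker of subcluster 5 among 19 genes, Adam19, and 7 highest there, as were 0.784% and 20.8% of all genes. Mmp14, a membrane-bound collagenase, was at 98.6% to 100% in all 4, and the gelatinase Mmp2 ranged from 53.3% of cells in subcluster 3 to 100% in subcluster 5, with 92.5% in subcluster 4.

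Of the laminins and elastic fibre genes, Lama2 was at 73.9% against at most 15.2% and Fbn2, a fibrillin, at 60.9% against at most 20%. Lama5, by contrast, was listed at 0 in subcluster 5 and was at 45% in subcluster 4. Nid2, which links laminin to collagen IV, was the 1 basement membrane marker of another subcluster, at 100% in subcluster 4, 60.7% and 60% in subclusters 0 and 3, and 4.3% in subcluster 5.

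Genes of resting fibroblasts were found in the same subcluster as Postn. Of 23 genes of that list, 16 were highest in subcluster 5 (20.8% of all genes were), and the median share was 73.9% against 38.6%, 36.7% and 32.5% in subclusters 0, 3 and 4. The markers were Dpt, Cygb, Dpep1 and Ly6c1 for subcluster 5 and Cxcl14 for subcluster 3. Cygb, a globin of quiescent fibroblasts, was at 95.7% against at most 35.2%, and Dpep1 at 60.9% against at most 3.4%. Pi16, known from perivascular fibroblasts, was at 65.2%, 37.9%, 26.7% and 15% in subclusters 5, 0, 3 and 4, and missed the margin. Tcf21, a transcription factor of resident cardiac fibroblasts, was at 43.5%, 35%, 6.7% and 2.1% in subclusters 5, 4, 3 and 0. Pdgfra was at 87%, 85%, 66.7% and 38.6% in the same order. For Pdgfra and Tcf21 alike, subclusters 4 and 5 stood together above subclusters 3 and 0.

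Of the matrifibrocyte list, 4 genes were markers of subcluster 5 and 1 of subcluster 4, as were 0.784% and 0.272% of all genes. Cilp was at 34.8% in subcluster 5 and at most 3.3% elsewhere, Crispld2 at 69.6% against at most 27.5%, and Meox1 and Ccn5 were counted in subcluster 5 alone of the 4. Comp was at 17.4% in subcluster 5 and listed at 0 in the others. Vegfc, a lymphatic growth factor placed in the same list, was a marker of subcluster 4, at 87.5% against at most 43.5%. Sfrp2 and Angptl7 were also highest there, at 82.5% and 45% against at most 69.6% and 26.7%. Sox9, the cartilage transcription factor, was at 52.2% in subcluster 5, 44.1% and 33.3% in subclusters 0 and 3 and 5.0% in subcluster 4. Of 15 measured genes, 7 were highest in subcluster 5 and 6 in subcluster 4, where 20.8% and 25.3% of all genes were. Angptl7, Thbs1, Sfrp2 and Vegfc are among the 6. The study names these genes as enriched in subcluster 4 of the same data, so their place there was known beforehand and the count is not separate support.

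Many contractile genes were counted in nearly all cells, with a median share of 88.3%, 93.3%, 92.5% and 91.3% in subclusters 0, 3, 4 and 5, where shares can show little difference. Of 33 genes, 7 were highest in subcluster 5 (20.8% of all genes were) and 12 were tied for the highest share. Myl9, the regulatory light chain of smooth muscle myosin, was a marker of subcluster 5 at 65.2% against at most 30%. Fhl2, a LIM-domain protein of stress fibres, was at 60.9% against at most 20%. Mylk, the kinase that activates that light chain, was the leading marker of subcluster 4, at 77.5% against 12.4%, 20% and 17.4% in subclusters 0, 3 and 5. The light chain and its kinase were thus detected most widely in different subclusters. Tagln was at 65.2% and 60% in subclusters 5 and 4 and 40% and 32.4% in subclusters 3 and 0. Myh11, the heavy chain of mature smooth muscle, was at 0.7% in subcluster 0 and listed at 0 in the others, and Rgs5 of pericytes was at 8.7% in subcluster 5 and at 0 in the others. Over 10 genes of mural cells (pericytes and smooth muscle) the median was 3.1%, 3.3%, 7.5% and 15.2% in subclusters 0, 3, 4 and 5, with 8 of 10 highest in subcluster 5 (20.8% of all genes were). The marker among them was Ndufa4l2, at 47.8% against at most 10%. The part of mural transcripts in the genes of subcluster 5 was not tested.

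The markers of subcluster 5 in the Wnt and TGF-beta lists were Sfrp1, Frzb, Eng and Lrrc32. Sfrp1 and Frzb are soluble inhibitors of Wnt and were at 82.6% against at most 32.5% and at 34.8% against at most 3.3%. Eng is a co-receptor for TGF-beta and Lrrc32 an anchor for its latent form, and they were at 60.9% against at most 22.1% and at 56.5% against at most 13.8%. Of 23 genes of the Wnt list, 8 were highest in subcluster 5 and 8 in subcluster 0, where 20.8% and 17.8% of all genes were. Of 29 genes of the TGF-beta axis, 15 were highest in subcluster 5 (20.8% of all genes were), and Tgfbr1 was at 73.9% there, 53.3%, 46.2% and 15% in subclusters 3, 0 and 4. Fst, which binds activin, was at 56.5% against at most 23.4%. Itgbl1, an integrin-like secreted protein, was at 52.2% against at most 20%. Further leading markers included Pdgfrl, Lrrc17, Pamr1, Zfp469, Anpep, Ebf2, Cped1, Pcdh19, Gpc6, Atp8b1, Steap3 and Fibin, with margins from 69.5 points for Pdgfrl to 48.4 points for Fibin. Ebf2, a relative of Ebf1, was at 65.2% against at most 4.8%.

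Of the YAP and TAZ targets, 4 of 22 were markers of subcluster 5 (0.784% of all genes were): Ccn1, Ccn2, Dlc1 and F3. In all, 10 of 22 were highest and 7 of 22 lowest in subcluster 5, where 20.8% and 36.3% of all genes were. Among the 7, Ptpn14 was at 30.4% against 43.3% to 60%. Dlc1 was at 78.3% against at most 35%, and F3 (tissue factor) at 47.8% against at most 14.5%. Ankrd1 was at 5.0% or less in all 4. Of the Hippo genes themselves none was a marker. Wwtr1 was at 100%, 93.3%, 81.4% and 80% in subclusters 5, 3, 0 and 4, while Yap1 was at 30.4%, 23.3%, 46.2% and 57.5%. Both co-activators followed different orders, with subcluster 5 highest for Wwtr1 and subcluster 4 for Yap1. Neither top place recurred in the library labelled Yap/Wwtr1-depleted. Yap1 was at 56.2% in subcluster 0 and 40% in subcluster 4 there, and Wwtr1 at 91.3% and 90.6% in subclusters 3 and 0 and 85.7% in subcluster 5.

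**Figure D2:**
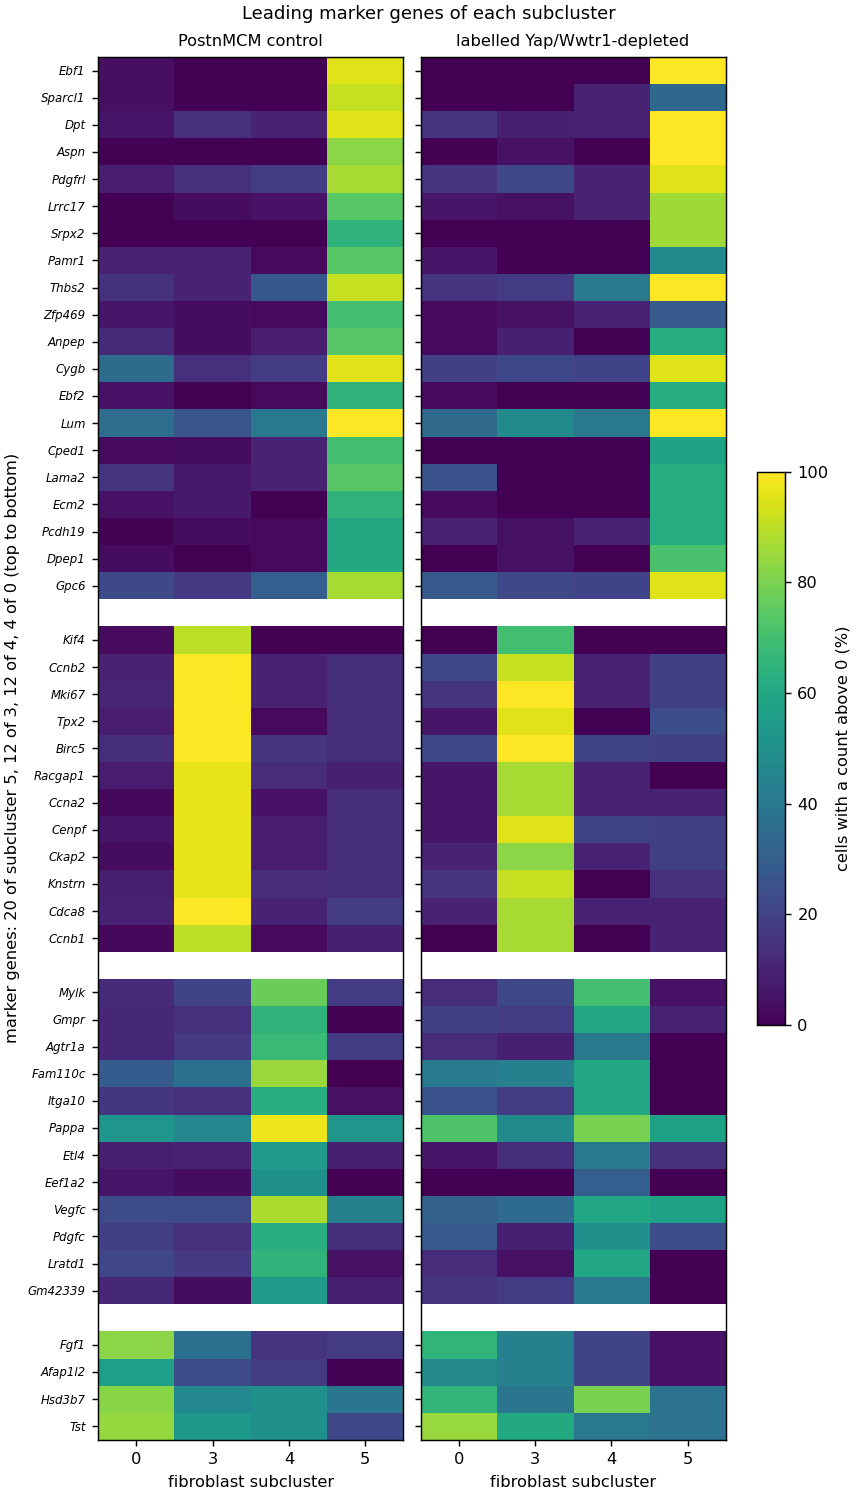
Share of cells (%, colour) with a count above 0 for the leading markers of subclusters 5 (20 genes), 3 (12), 4 (12) and 0 (4), as chosen in the control library (left), beside the same genes in the library labelled Yap/Wwtr1-depleted (right). The blocks of subclusters 5 and 3 keep their high column on the right, while Sparcl1 and Zfp469 are at 33.3% and 28.6% in subcluster 5 there.

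Most mesothelial and epicardial genes were found in fewer cells of subcluster 5 than of the other 3. Of 15059 genes, 208 (1.38%) had a share in subcluster 5 at least 30 points below each of the others, against 17 (0.113%) for subcluster 4, 3 (0.0199%) for subcluster 0 and 2 (0.0133%) for subcluster 3. This count was made after the values were seen. Of 23 mesothelial and epicardial genes, 14 were among the 208, and 21 had their single lowest share in subcluster 5, as had 36.3% of all genes. The median of the list was 81.4%, 70% and 80% in subclusters 0, 3 and 4 and 17.4% in subcluster 5. Upk3b, a uroplakin of mesothelium, was at 93.8%, 93.3% and 95% against 21.7%. Lrrn4 was at 90.3%, 86.7% and 100% against 13%. Bnc1, a transcription factor of mesothelium, was at 58.6%, 63.3% and 80% and listed at 0 in subcluster 5. Wt1, the epicardial transcription factor, was high in all, at 97.2%, 93.3%, 92.5% and 73.9%. Krt19 was highest in subcluster 0, at 94.5%, against 76.7%, 37.5% and 34.8% in subclusters 3, 4 and 5. Tcf21 was the 1 gene of the list highest in subcluster 5.

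The label fibroblast was therefore checked against its markers. Col1a1, Col1a2, Col3a1, Dcn and Sparc were at 100% in every subcluster, and the median over 12 fibroblast genes was 74.8%, 71.7%, 88.8% and 100% in subclusters 0, 3, 4 and 5. Pdgfrb was at 31.7%, 20%, 52.5% and 78.3%. In subclusters 0, 3 and 4 collagen transcripts and the mesothelial list were both widely counted, which goes in part against the label, while subcluster 5 had the fibroblast list at its highest and the mesothelial list at its lowest median. The median over 17 macrophage genes was 47.6%, 33.3%, 42.5% and 21.7%. Csf1r, a macrophage receptor, was at 60%, 50% and 57.5% in subclusters 0, 3 and 4 and at 13% in subcluster 5, whereas C1qb was at 77.5% to 82.8% in all 4. The part of macrophage transcripts in these differences was not tested.

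**Figure D3:**
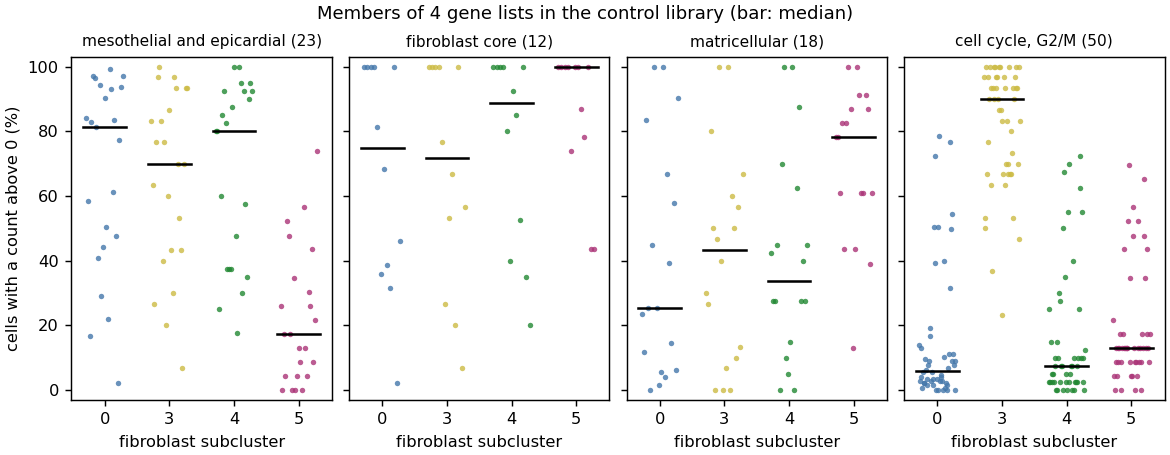
Share of control cells (%) with a count above 0 for each member (points) of 4 gene lists in subclusters 0, 3, 4 and 5, with the median as a bar. The mesothelial and epicardial median is 17.4% in subcluster 5 and 70% or more in the others, the matricellular median is 78.3% in subcluster 5 and at most 43.4% in the others, and the G2/M median is 90% in subcluster 3 and at most 13% in the others.

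Subcluster 3 was marked by the cell cycle. All 50 genes of the G2/M list, which act from the end of DNA synthesis to division, were highest in subcluster 3, as were 30.3% of all genes. Of the 50, 43 were markers, as were 1.37% of all genes. The median was 90% there against 5.85%, 7.5% and 13% in subclusters 0, 4 and 5. Kif4, a chromosome-binding kinesin, was at 90% in subcluster 3, at 2.8% in subcluster 0 and listed at 0 in subclusters 4 and 5. Ccnb2, a mitotic cyclin, and Mki67, the proliferation antigen, were both at 100%, against at most 13% elsewhere. Tpx2, Birc5 and Cdca8 were also at 100%, against at most 13%, 15% and 17.4%. Racgap1, Ccna2, Cenpf, Ckap2 and Knstrn were each at 96.7%, against at most 13%, and Ccnb1 was at 90% against at most 8.7%. Gtse1 was the least detected of the list, at 23.3%.

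Genes of DNA synthesis separated subcluster 3 less. Of 33 S-phase genes, 29 were highest in subcluster 3 and 8 were markers, as were 30.3% and 1.37% of all genes. The median was 40% against 11%, 15% and 8.7% in subclusters 0, 4 and 5. Rrm1, a subunit of ribonucleotide reductase, was at 100% there, against 53.8%, 70% and 26.1% in subclusters 0, 4 and 5. Pcna was at 73.3% in subcluster 3 and at 52.2% to 67.5% in the others. Mcm2 to Mcm7 were at 30% to 66.7% in subcluster 3. Of the 206 markers, 51 belonged to either cycle list, as did 83 of all 15059 genes. The chemokine Cxcl14 was a marker of another kind, at 76.7% against at most 39.3%. The mesothelial median of 70% and the Postn share of 40% in subcluster 3 are given above. Marker genes of subcluster 3 were also found outside the fibroblasts: 105 of the 206 were listed in at least 1 of 17 tables of other cell clusters, and 21 reached their own share or more in 1 of them. For subcluster 5, 14 of 118 were so listed, and 3 reached it (Crispld2, Lmo2 and Niban1). Those tables list only genes past the authors' limits on detection and on the difference between libraries, so a gene that is not listed has no value there. The share of all genes so listed was not counted, so these counts cannot be called high or low.

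The promoters of the 3 leading markers of subcluster 3 are shown because CCAAT and TTTGAA are the known elements of genes of mitosis. Capitals mark the same 5 motifs.
Kif4, chrX:100625815-100626114, plus strand: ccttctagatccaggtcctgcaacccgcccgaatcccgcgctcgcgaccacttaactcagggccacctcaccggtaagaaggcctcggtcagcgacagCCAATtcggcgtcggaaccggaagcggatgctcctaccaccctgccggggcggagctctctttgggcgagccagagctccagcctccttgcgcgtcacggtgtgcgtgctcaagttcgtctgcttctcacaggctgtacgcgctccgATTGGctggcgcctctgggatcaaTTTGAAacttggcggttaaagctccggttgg
Ccnb2, chr9:70421505-70421804, minus strand: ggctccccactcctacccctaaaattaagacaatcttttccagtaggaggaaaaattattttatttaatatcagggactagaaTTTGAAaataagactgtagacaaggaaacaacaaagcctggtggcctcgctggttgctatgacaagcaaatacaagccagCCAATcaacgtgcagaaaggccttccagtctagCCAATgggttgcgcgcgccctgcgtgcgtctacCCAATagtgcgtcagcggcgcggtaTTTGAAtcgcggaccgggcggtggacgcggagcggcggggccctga
Mki67, chr7:135716330-135716629, minus strand: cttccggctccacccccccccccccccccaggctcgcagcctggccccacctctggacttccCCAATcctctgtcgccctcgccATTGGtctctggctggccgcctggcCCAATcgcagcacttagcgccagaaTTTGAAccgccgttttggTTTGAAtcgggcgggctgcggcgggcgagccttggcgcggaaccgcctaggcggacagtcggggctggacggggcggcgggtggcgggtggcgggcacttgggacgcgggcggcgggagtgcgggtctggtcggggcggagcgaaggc
Kif4 held 2 CCAAT and 1 TTTGAA, and Ccnb2 and Mki67 each held 3 CCAAT and 2 TTTGAA. Of the 206 markers 169 matched a RefSeq promoter (82%). CCAAT was found in 65.1% of them, against 41.1% of all 27025 genes, and TTTGAA in 45.6% against 20.2%. Of the 15059 measured genes 76.7% matched a promoter, under 80%, and 42.4% of those held CCAAT and 14.9% TTTGAA. The same check is void for subclusters 4 and 5, where 28 of 41 and 85 of 118 markers matched, under 80% of each set, and no share is given for them.

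Of the 41 markers of subcluster 4, Mylk is described above. Gmpr, a guanine nucleotide enzyme, was at 65% against at most 13.3%, and Agtr1a, the angiotensin II receptor, at 67.5% against at most 17.4%. Pappa, which cleaves IGF-binding proteins and frees IGF, was at 97.5% against at most 52.4%. Igf1 was at 100%, 91.3%, 73.3% and 63.4% in subclusters 4, 5, 3 and 0. Itga10, a collagen-binding integrin, was at 62.5% against at most 15.9%. Pdgfc, a ligand of the PDGF receptor, was at 62.5% against at most 18.6%, and Ccbe1, which helps activate Vegfc, was at 80% against at most 37.9%. Vegfc and Ccbe1 were thus markers of the same subcluster. Fam110c, Etl4, Eef1a2, Lratd1 and the unnamed gene Gm42339 complete the 12 widest margins, from 48.3 points for Fam110c to 43.3 points for Gm42339. Of the contractile genes, 8 of 33 had their single highest share there (25.3% of all genes did).

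Subcluster 0 had 4 markers. Fgf1, a growth factor, was at 82.8% against 36.7%, 15% and 17.4% in subclusters 3, 4 and 5. Afap1l2 was at 56.6% against at most 23.3%. Tst, a sulfurtransferase, was at 84.1% against at most 53.3%, and Hsd3b7, an enzyme of bile acid synthesis, was at 82.1% against at most 50%. With subcluster 3 left out of the comparison, 47 genes were markers of subcluster 0. Igfbp5 and Igfbp3, which bind IGF, were also highest there, at 88.3% against at most 60% and at 57.9% against at most 36.7%, both short of 30 points.

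**Figure D4:**
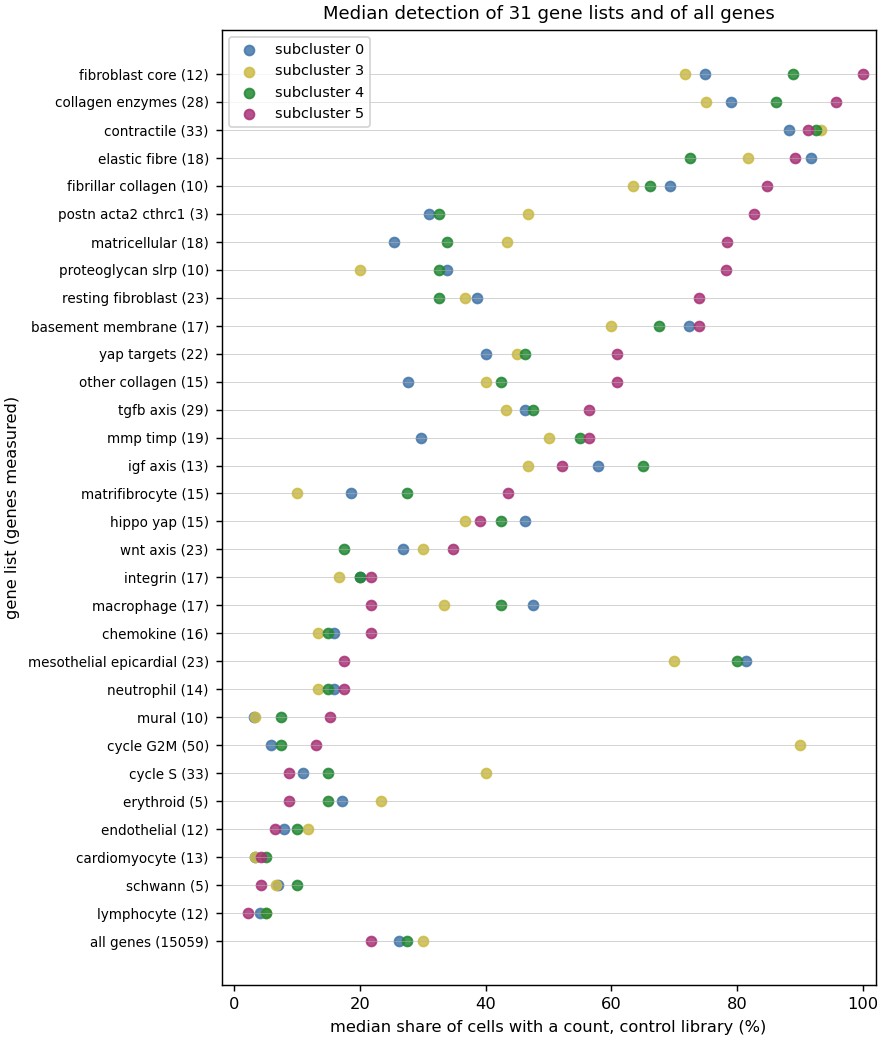
Median share of control cells (%) with a count above 0 for 31 gene lists and for all 15059 genes in each subcluster, ordered by the value in subcluster 5, with the number of genes measured in brackets. Subcluster 5 has the single highest median for 18 lists, although its median over all genes, 21.7%, is the lowest of the 4.

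Whether the order of the subclusters recurred was then read in the library labelled Yap/Wwtr1-depleted. The same joint clustering assigned its cells, so a repeat is not independent and is described only. Of the 118 markers of subcluster 5, 107 (90.7%) had their single highest share in subcluster 5 there, as had 21.6% of all genes, and 67 (56.8%) were again at least 30 points above the other 3, as were 1.25% of all genes. The 67 made up 35.6% of the 188 genes past that margin in that library. Ebf1 was at 100% and listed at 0 in the other 3, Aspn at 100% against at most 4.3%, Postn at 100% against at most 28.1% and Col8a1 at 95.2% against at most 10%. The median margin of the 118 genes was 39.9 points in the control library and 37.2 points in the other. The whole order of the 4 subclusters, without ties, was the same for 14 of the 118.

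The 11 markers of subcluster 5 that did not repeat included Dlc1, Ncoa7, Slc12a4, Slc41a2, Plod1, Pkd1, F3, Fst, Ccn4 and Stard13. Ccn4 was at 38.1% in subcluster 5 and 50% in subcluster 4 there, and F3 at 9.5% against at most 13%. Dlc1 was at 42.9% against 60% in subcluster 4. F3 and Dlc1 are 2 of the 4 YAP and TAZ targets named above, and Ccn1 and Ccn2, the other two, kept their highest share in subcluster 5, at 57.1% and 76.2%. Acta2 was at 59.4%, 78.3%, 40% and 76.2% in subclusters 0, 3, 4 and 5 of that library. Subclusters 3 and 5 differed there by less than the smallest shares above 0, 4.3% and 4.8%, so they were not ranked. Cthrc1 was at 34.4%, 21.7%, 10% and 100%. Cthrc1 would be a marker of subcluster 5 in that library by 65.6 points.

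For subcluster 3, 193 of 206 markers (93.7%) were highest there again, against 24.3% of all genes, and 113 (54.9%) passed 30 points, against 1.01%. Mki67 and Birc5 were at 100% and Kif4 at 69.6%. Pttg1, a separase inhibitor with a margin of 80.3 points in the control library, was at 60.9% in subcluster 3 and 59.4% in subcluster 0. For subcluster 4, 36 of 41 (87.8%) were highest again, against 28.4% of all genes, but 11 (26.8%) passed 30 points, against 1.08%, and the 11 made up 6.79% of the 162 genes past the margin there. The smallest share above 0 in that subcluster was 10% in that library, the coarsest of the 8. Mylk was at 70% against at most 21.7%, while Kcnj15, at 62.5% in the control library, was listed at 0. For subcluster 0, 3 of 4 were highest again, against 17.1% of all genes, and none passed 30 points, as did 12 genes (0.0797%) of all. Hsd3b7 was at 65.6% there and at 80% in subcluster 4. The low genes of subcluster 5 were read in the same way, and 177 of 208 (85.1%) had their single lowest share in subcluster 5 again, against 25.1% of all genes. Of the 17 low genes of subcluster 4, 7 were lowest there again, against 21.3% of all genes.

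**Figure D5:**
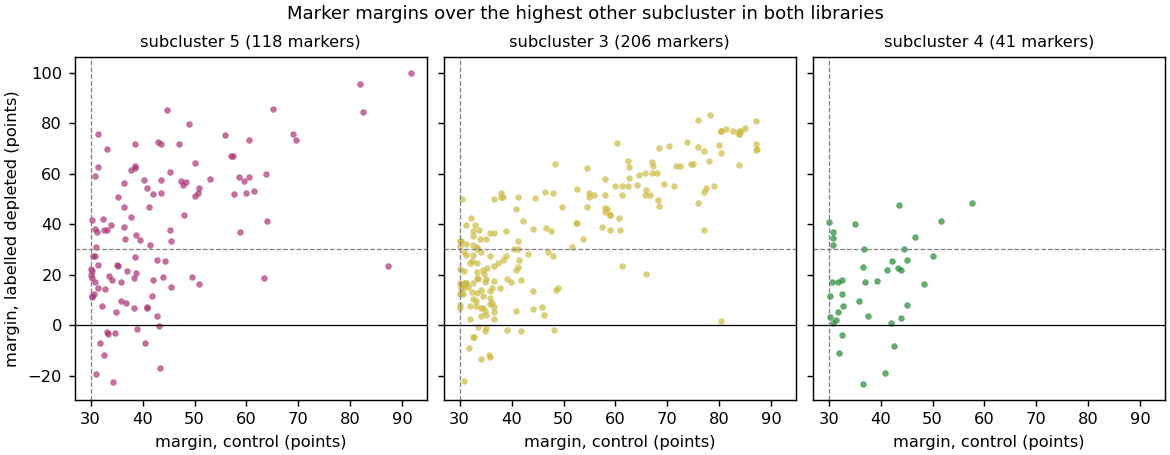
Margin of each marker over the highest other subcluster, in percentage points, in the control library (x axis) and in the library labelled Yap/Wwtr1-depleted (y axis), for subclusters 5, 3 and 4. Dashed lines mark 30 points. Points above 0 on the y axis, 107 of 118, 193 of 206 and 36 of 41, were highest in the same subcluster in both libraries.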

How the data were processed

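Live ventricular cells of 2 mouse libraries were profiled by 10x single-cell RNA-seq. The authors aligned reads with Cell Ranger 6.1.1 to GRCm39, normalised counts by SCTransform in Seurat (mitochondrial fraction as a covariate), clustered both libraries together, and re-clustered the fibroblasts. The deposited tables compare the libraries within each subcluster. They hold, per gene, the fraction of cells of each library with an SCTransform-corrected count above 0. Which library and which count each fraction refers to was read from the study's supplementary methods. The authors' own fold changes, p-values and adjusted p-values stand beside the fractions and were not used. The fraction is printed as a percent. Shares do not show how much transcript a cell held, and can vary with depth per cell, which is not listed. The column of the control library was joined by gene over subclusters 0, 3, 4 and 5 with Python 3.11.15 and pandas 2.3.3. All columns of shares that were used here were mapped to a library, so 0 of those used were left unmapped.

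A marker required a margin of 30 percentage points over each other subcluster. With 1 library per group and cells clustered on these genes, no test was made. The genes named were Postn, Acta2 and Cthrc1, the 30 markers of subcluster 5 and the 12 of each other subcluster with the largest margins (all 4 for subcluster 0), the 3 genes on each side of the threshold, markers that belong to a gene list, and list members with a known role. Genes named outside that rule were chosen after their values were seen: those whose repeat in the second library is described, those at 0 in the other 3 subclusters, those found at a high share in other cell clusters, Ccbe1 and Fst. Some genes that the rule names are not reported here. The members and lists were chosen with earlier results of these data known. Alternatives varied the margin, scaling, genes, subclusters compared and library. The scripts were tested on simulated data. Promoters came from RefSeq (GRCm38.p6).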

Additional observations from a re-analysis of the deposited data

How the results depend on the processing

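No paired analysis was possible because the groups compared held 1 library each. With no replicate spread, a value was called moved where it changed by more than 1.5 times, and 43 of 77 alternatives of the marker counts, of their repeats in the second library, of the 3 genes' margins and of the list count stayed within that. In the order of subclusters 0, 3, 4 and 5, the marker counts of 4, 206, 41 and 118 became 46, 475, 166 and 314 at a margin of 20 points, 1, 109, 17 and 59 at 40 points, and 60, 339, 133 and 218 against the mean of the other 3. Shares centred on each subcluster's median over the 12576 genes at 10% or more in at least 1 of the 4 moved subclusters 0, 3 and 5 to 8, 135 and 221, quantile normalised shares moved subcluster 5 to 184, and a ratio of at least 2 moved subclusters 0, 4 and 5 to 9, 79 and 191. Leaving a subcluster out of the comparison gave 47 markers of subcluster 0 without subcluster 3, 15 without 4 and 13 without 5, and 85 markers of subcluster 4 without 0 and 68 without 5, since fewer groups had to be exceeded. The other library gave 12, 162 and 188 markers of subclusters 0, 4 and 5. Acta2 in subcluster 5 moved from 5.5 points below the next subcluster to 8.87 above the mean of the others, to 4.1 above with centred and 1.87 above with quantile normalised shares, and to 15.3 above without subcluster 3. Cthrc1 moved from 12.6 points to 28.8 against the mean, 19.7 centred and 35.9 without subcluster 4, past the margin. Postn stayed past it in every alternative run. Of 372 alternatives of list medians, 321 stayed within 1.5 times, and subcluster 5 had the highest median for 16 to 19 lists. The causes were not tested. Depth and cell numbers are not listed, and no interval is given.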

Other observations

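Genes that were low in 1 subcluster were looked for after the values had been seen. In subcluster 4, 17 genes (0.113% of all genes) lay at least 30 points below each other subcluster. Those named here were picked from them after their values were seen. Il33, an alarmin cytokine, was at 84.8%, 73.3%, 25% and 60.9% in subclusters 0, 3, 4 and 5. Mfap5, a microfibril protein, was at 93.1%, 73.3%, 32.5% and 100%, and Clec3b (tetranectin) at 95.2%, 70%, 35% and 73.9%. Enpp2, which makes lysophosphatidic acid, was at 88.3%, 73.3%, 25% and 56.5%, and Tgfb2 at 48.3%, 56.7%, 17.5% and 60.9%. In the library labelled Yap/Wwtr1-depleted, 7 of the 17 had their single lowest share in subcluster 4, against 21.3% of all genes. Of the 5 named, Mfap5 did, at 40% against at least 65.2%, and Il33, Clec3b, Enpp2 and Tgfb2 did not.

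The 3 genes low in subcluster 0 were the thrombin receptor F2r, at 15.2%, 60%, 50% and 60.9% in subclusters 0, 3, 4 and 5, the metalloprotease Adam12, at 18.6%, 50%, 67.5% and 60.9%, and the actin-binding Nexn, at 14.5%, 46.7%, 45% and 47.8%. Among the 208 genes low in subcluster 5, the tight junction gene Cldn3 was at 73.8%, 83.3%, 72.5% and 4.3%, and Met, the receptor for hepatocyte growth factor, at 56.6%, 66.7%, 75% and 4.3%.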
